A study of Mus musculus with 384 samples.

Results

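Among liver transcriptomes of Diversity Outbred mice, an outbred stock in which every animal carries its own mixture of several founder genomes, the chow mice with the most Scd1 transcript were set against the chow mice with the least. The groups were chosen by Scd1 itself: within each sex the 98 chow mice were ranked on log2(value + 0.06) of Scd1, and the highest 25% (the high-Scd1 group, 24 mice, 12 females and 12 males) were compared with the lowest 25% (the low-Scd1 group, 24 mice, 12 females and 12 males). The other 50 chow mice lay in neither group. The whole series held 192 mice, of which 94 had eaten a high fat diet. These gave a high-Scd1 group of 23 mice and a low-Scd1 group of 23 mice by the same ranking. All mice were wild type, 26 weeks old and from outbreeding generation G11L1 or G11L2, and had been fed from weaning either standard chow with 6% fat by weight or a high fat chow with 22% fat by weight. The chow groups differed in no label other than the counts of generation and coat, and each mouse was 1 genetically distinct animal sequenced in 2 technical repeats that share 1 column of values. Values are a signal that the authors scaled by its upper quartile in each mouse. They are compared here between mice for 1 gene at a time and not between genes.

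Scd1 encodes stearoyl-CoA desaturase, the enzyme that places a double bond into newly made or dietary saturated fatty acids and is the main such desaturase of the mouse liver. De novo lipogenesis turns citrate exported from mitochondria into acetyl-CoA, malonyl-CoA and palmitate, with NADPH as the reductant, and then elongates and desaturates the product for storage in triglyceride. In liver the pathway is known to be driven by SREBP-1c under insulin, by ChREBP under glucose, and by liver X receptors.

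Scd1 (ENSMUSG00000037071, GRCm38 chr19:44394455-44407879, minus strand) ran over a wide range without any dietary fat challenge. In the high-Scd1 group its signal had a lowest value of 1064, a median of 1511 and a highest value of 5647, against 34.41, 256.4 and 386.5 in the low-Scd1 group. The groups cannot overlap, because these values chose them. At the upper edge the last female inside had 1063.5 and the first outside 1033.3, and the last male inside had 1192.7 and the first outside 1103.2. At the lower edge the highest female inside the low-Scd1 group had 351.18 and the next one outside 361.96, and the corresponding males had 386.54 and 395.61. No test is given for Scd1, and it was left out of every result below.

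Depth was similar in both groups. The 10 largest genes held 15.9% to 24.0% of the signal in the high-Scd1 group (median 19.1%). In the low-Scd1 group they held 17.0% to 29.5% (median 20.6%). The estimated depth was 11.05 to 17.48 megareads in the high-Scd1 group (median 14.78) and 10.49 to 17.93 megareads in the low-Scd1 group (median 14.67). Generation G11L1 held 13 of the high-Scd1 and 9 of the low-Scd1 mice. Hepatocyte identity was plain in both groups: the summed signal of 9 hepatocyte markers was 22099.9 to 39369 in the high-Scd1 group and 23413 to 43874 in the low-Scd1 group. Pancreas transcripts were more than 10 times the chow median in 1 high-Scd1 and 2 low-Scd1 mice. In 1 female of the high-Scd1 group, Xist, the RNA of the inactive X chromosome, had a signal of 0.361, against 126.5 to 311.6 in the other chow females and at most 2.469 in chow males. The sex-dependent liver genes of that mouse were of the female kind, with 0.263 of Cyp4a12a, 150.2 of Cyp2b9 and 90.34 of Sult2a1. The Y-linked genes Ddx3y, Eif2s3y, Kdm5d and Uty were not found among the genes used here, so they could not be checked. Results are given with this mouse and, for the counts, without it.

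Of 14591 genes tested with limma, 126 were higher in the high-Scd1 group (0.864% of the genes tested) and 55 were lower (0.377%) at an adjusted p under 0.05. Of these, 49 of the higher and 23 of the lower genes differed by more than 1.5-fold. Without the female whose Xist went against its label, 120 genes were higher and 49 lower. The generation label was a term of the fit. Within it, G11L2 alone (26 mice) gave 41 higher and 4 lower genes, and G11L1 alone (22 mice) gave 3 higher and 5 lower genes. The median log2 differences of the 126 higher and the 55 lower genes were 0.35 and -0.47 in G11L1, 0.54 and -0.54 in G11L2, and 0.45 and -0.55 in both together, a description only, since these same mice had chosen the genes. The groups were set on a value from the same libraries, so these p-values describe association with Scd1 among these mice. In whole liver, a change in the number of cells of a type and a change in RNA per cell cannot be told apart.

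Most of the fatty acid synthesis enzymes were higher. Of 16 tested members of this list, 10 were higher in the high-Scd1 group and 0 were lower. The shares over all genes tested were 0.864% higher and 0.377% lower, to be set beside every later list in chow mice. A single call in a short list says little about that list. The median log2 difference of the 16 was 0.53, beside 0.01 over all genes tested. The 10 were Acly, Acss2, Acaca, Acacb, Fasn, Elovl6, Elovl5, Me1, Slc25a1 and Acsl5, which reach from citrate export to chain elongation and activation. Fads1, Fads2, Tecr, Acsl3, Mcat and Hacd3 did not pass, and Olah was not tested. Acss2, Acsl5 and Acaca overlap genes on the opposite strand over long stretches, and the counting was not stated to use strand.

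Promoters of some of these genes are shown because the genes were called in the same direction, with the letters of motifs that lipogenic factors are known to use. Sequences are from RefSeq and run 5′ to 3′ on the strand of the gene over the 250 bases before its start site. Capitals mark every CCAAT box (CCAAT or its reverse complement) and every E-box of the form CACGTG. The last of the 5 holds neither.
Fasn (GRCm38.p6 chr11:120824548-120824797, minus strand): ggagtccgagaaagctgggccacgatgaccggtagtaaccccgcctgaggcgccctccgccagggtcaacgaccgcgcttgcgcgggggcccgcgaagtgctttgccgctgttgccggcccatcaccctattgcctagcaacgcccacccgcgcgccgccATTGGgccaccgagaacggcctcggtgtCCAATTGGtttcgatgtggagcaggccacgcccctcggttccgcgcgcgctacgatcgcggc
Acss2 (GRCm38.p6 chr2:155517793-155518042, plus strand): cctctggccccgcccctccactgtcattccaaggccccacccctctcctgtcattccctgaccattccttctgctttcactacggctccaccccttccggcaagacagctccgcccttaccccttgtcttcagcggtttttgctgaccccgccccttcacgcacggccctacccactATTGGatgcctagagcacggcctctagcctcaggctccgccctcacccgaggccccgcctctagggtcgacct
Elovl5 (GRCm38.p6 chr9:77917115-77917364, plus strand): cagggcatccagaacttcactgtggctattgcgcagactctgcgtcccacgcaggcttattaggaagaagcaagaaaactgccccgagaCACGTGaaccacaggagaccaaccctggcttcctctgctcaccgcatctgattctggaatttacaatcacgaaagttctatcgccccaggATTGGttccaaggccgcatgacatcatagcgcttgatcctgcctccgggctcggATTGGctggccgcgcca
Slc25a1 (GRCm38.p6 chr16:17928220-17928469, minus strand): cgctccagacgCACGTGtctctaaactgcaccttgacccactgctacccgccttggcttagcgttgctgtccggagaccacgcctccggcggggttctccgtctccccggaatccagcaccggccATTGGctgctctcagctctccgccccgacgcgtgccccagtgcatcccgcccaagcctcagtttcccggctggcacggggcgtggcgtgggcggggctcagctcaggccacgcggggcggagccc
Elovl6 (GRCm38.p6 chr3:129532136-129532385, plus strand): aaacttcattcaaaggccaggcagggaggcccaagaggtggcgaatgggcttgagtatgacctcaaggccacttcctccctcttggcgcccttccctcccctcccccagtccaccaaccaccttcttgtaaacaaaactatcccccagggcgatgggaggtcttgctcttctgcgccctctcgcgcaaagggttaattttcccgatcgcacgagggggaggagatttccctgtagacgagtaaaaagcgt
In the Fasn window CCAAT boxes begin at positions -90, -62 and -59 from the start site, and the last pair overlap as 1 palindrome. Acss2 has 1 at -73. Elovl5 has 2, at -71 and -17, and an E-box at -161, and Slc25a1 has an E-box at -239 and a CCAAT box at -125.

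All 10 of the called genes had a RefSeq promoter of 300 bases, from 250 before to 50 after the start site. Counting both strands of these windows, 8 of the 10 held CCAAT (80.0%), against 42.6% of tested genes with a promoter and 41.1% of all 27025 genes with one. A gene with several windows counted if any of them held the motif, and Me1 counted through 1 of its windows only. By window, 8 of 11 held CCAAT (72.7%), against 37.5% of the windows of tested genes. In Acly the box began 37 bases after the start site. CCAAT was also in 51.0% of all the genes called higher, in 57.6% of those called lower and in 94.1% of the cholesterol synthesis and uptake genes, of which 0 passed in chow mice. The E-box CACGTG lay in 2 of the 10 (Elovl5 and Slc25a1, 20.0%), against 11.4% of tested genes and 8.09% of all genes. The classical sterol response element TCACNCCAC lay in 0 of the 10, against 1.48% of tested genes and 1.44% of all genes. The GC box GGGCGG lay in 4 of the 10 (40.0%), against 65.1% of tested genes and 38.2% of all genes. These matches describe letters in a window and were not tested.

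Fasn, the multi-enzyme that builds palmitate, had a lowest value of 102, a median of 251 and a highest value of 575 in the high-Scd1 group, against 47.05, 109 and 278 in the low-Scd1 group. All but 1 of the 24 high-Scd1 mice lay above the low-Scd1 median, and 10 lay above every low-Scd1 mouse, so the groups overlapped but were shifted apart. The difference was 2.25-fold (log2 1.17 ± 0.17, SE; adjusted p = 1.14e-05).

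Elovl6, which elongates palmitate to stearate, the preferred substrate of the desaturase, had 16.2, 38.1 and 189 (lowest, median, highest) in the high-Scd1 group and 8.54, 16.4 and 29.9 in the low-Scd1 group. The highest high-Scd1 mouse, the same female that had the highest Scd1, stood well apart from the rest. The difference was 2.26-fold (log2 1.18 ± 0.16, SE; adjusted p = 7.22e-06).

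The carboxylases that make malonyl-CoA moved with them. Acaca, the cytosolic form, had 32.4, 51.2 and 125 in the high-Scd1 group and 19.8, 29.3 and 44.7 in the low-Scd1 group. All 24 high-Scd1 mice exceeded the low-Scd1 median and 15 exceeded the low-Scd1 maximum (log2 0.73 ± 0.10, SE; adjusted p = 4.7e-06). Acacb, the mitochondrial form whose product restrains fatty acid oxidation, had 12.6, 33.3 and 64.2 in the high-Scd1 group and 3.81, 16.1 and 34.3 in the low-Scd1 group (log2 1.18 ± 0.17, SE; adjusted p = 1.87e-05).

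Upstream of them, transcripts for the supply of acetyl-CoA were also higher. Acly, which splits citrate in the cytosol, had 54.0, 113 and 225 in the high-Scd1 group and 38.6, 60.5 and 103 in the low-Scd1 group (log2 0.91 ± 0.13, SE; adjusted p = 6.85e-06). Acss2, which activates acetate, had 27.1, 62.4 and 169 in the high-Scd1 group and 14.2, 33.4 and 93.7 in the low-Scd1 group, with only 3 high-Scd1 mice above the low-Scd1 maximum (log2 0.85 ± 0.17, SE; adjusted p = 0.00327). Slc25a1, the mitochondrial citrate carrier, differed least, at 1.2-fold (log2 0.27 ± 0.06, SE; adjusted p = 0.0123). Aacs, a cytosolic synthetase that feeds ketone bodies into lipid synthesis and was singled out after its values were seen, was 2.11-fold higher (adjusted p = 0.00227).

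**Figure D1:**
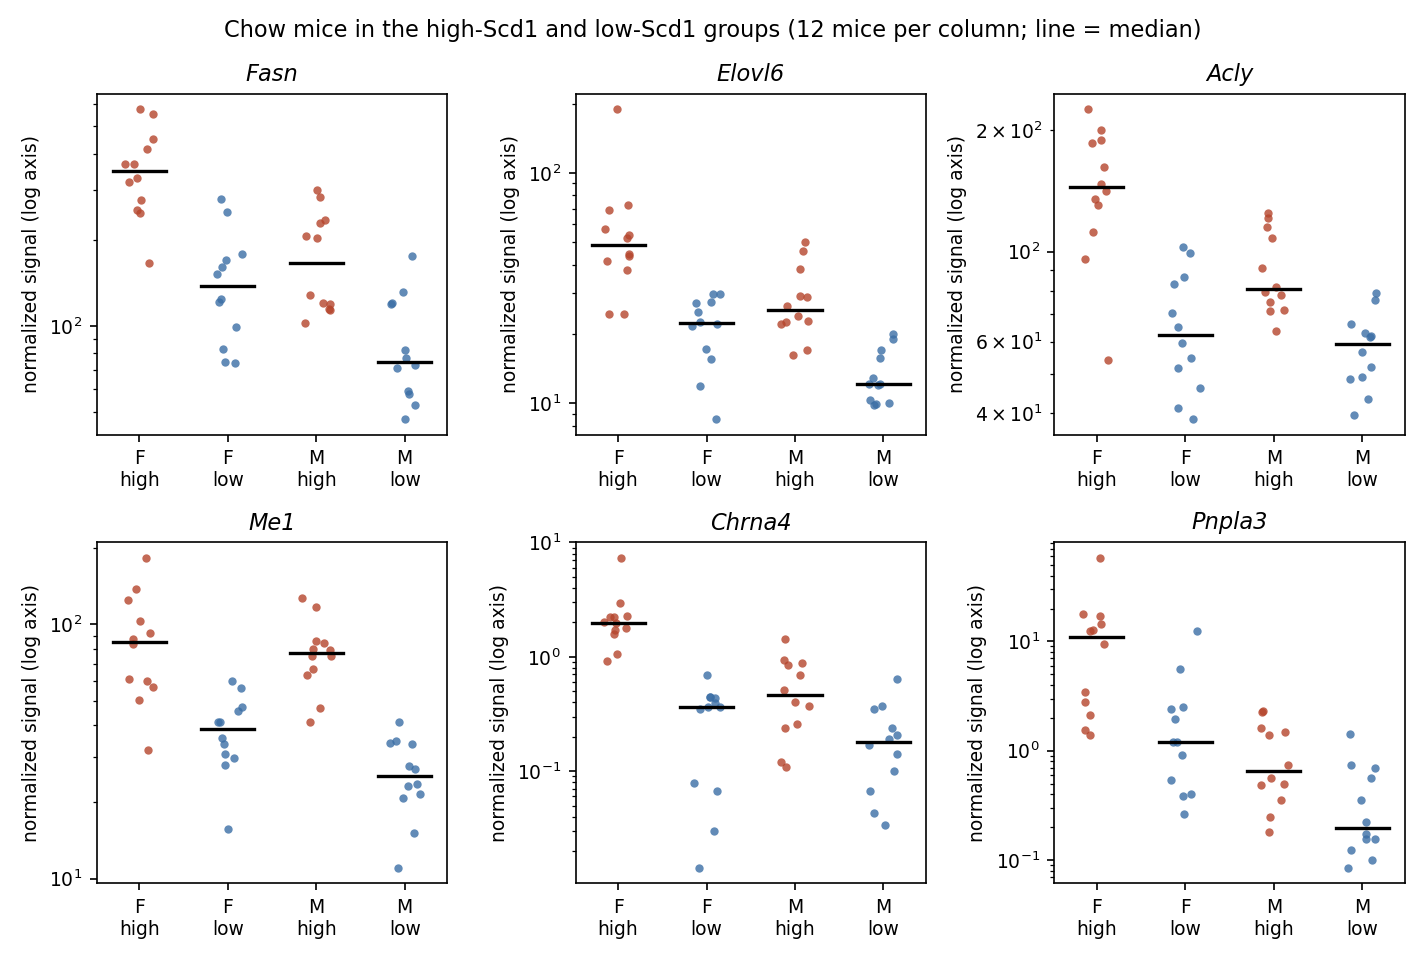
Normalized signal (log axis) of 6 genes in chow mice, with females (F) left and males (M) right, and the high-Scd1 group left of the low-Scd1 group within each sex; each point is 1 of 12 mice per column and the line is the median. Fasn medians were 349 and 138 in females and 166 and 74.9 in males (high-Scd1, low-Scd1), and its clouds of points shift without separating fully. The Chrna4 clouds of the females do not overlap.

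Malic enzyme Me1, which makes cytosolic NADPH, had the largest difference of the fatty acid list. It had 32.04, 79.4 and 183 in the high-Scd1 group and 11.03, 32.2 and 59.9 in the low-Scd1 group, and 18 high-Scd1 mice exceeded every low-Scd1 mouse (2.63-fold, log2 1.39 ± 0.16, SE; adjusted p = 2.18e-07). Among 10 tested genes listed for NADPH supply, which include pentose phosphate enzymes, 3 were higher and 0 lower: Pgd, Idh1 and Tkt. Of all genes tested, 0.864% were higher and 0.377% lower. Tkt, the transketolase of the pentose phosphate pathway, does not itself make NADPH and was the most cleanly separated of these 3. It had 27.5, 37.3 and 51.99 in the high-Scd1 group and 18.0, 23.2 and 31.5 in the low-Scd1 group, with 19 high-Scd1 mice above the low-Scd1 maximum (log2 0.62 ± 0.07, SE; adjusted p = 6.12e-08). G6pdx, the enzyme at the entry of the same pathway, had medians of 1.17 in the high-Scd1 and 1.13 in the low-Scd1 group (log2 0.10 ± 0.07, SE; adjusted p = 0.601).

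Of the other stearoyl-CoA desaturases, Scd2 did not pass. It had medians of 1.52 in the high-Scd1 and 1.41 in the low-Scd1 group (log2 -0.05 ± 0.14, SE; adjusted p = 0.917), and Scd3 and Scd4 were not tested. Genes of cytochrome b5 and of its reductase were examined after their values were seen, and which of them serves the desaturase was not tested. Cyb5r3, cytochrome b5 reductase, was 1.22-fold higher (adjusted p = 0.0406) and Cyb5b 1.32-fold higher (adjusted p = 0.0107), while Cyb5a had a median of 206 in both groups (adjusted p = 0.982).

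Few regulators of the pathway passed at the RNA level. Of 20 tested, 1 was higher and 0 lower, beside 0.864% and 0.377% of all genes tested, and their median log2 difference was 0.03. The 1 was Thrsp, a lipogenic coactivator also called Spot 14, with 64.5, 148 and 319.5 in the high-Scd1 group and 13.8, 66.4 and 249 in the low-Scd1 group (log2 1.12 ± 0.26, SE; adjusted p = 0.0151). Srebf1, the gene of SREBP-1c, had medians of 79.8 in the high-Scd1 and 62.2 in the low-Scd1 group with wide overlap (log2 0.44 ± 0.15, SE; adjusted p = 0.142). Mlxipl, the gene of ChREBP, had medians of 78.4 and 73.5 in the high-Scd1 and low-Scd1 groups (log2 0.14 ± 0.09, SE; adjusted p = 0.594). Nr1h3, the liver X receptor alpha gene, had medians of 23.9 in the high-Scd1 and 23.4 in the low-Scd1 group (adjusted p = 0.998). These are transcript levels, and processing of SREBP or sugar activation of ChREBP was not measured.

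Of 20 genes for glucose uptake and glycolysis, 6 were higher and 0 lower, among them Pklr, Khk, Gpi1 and Pdhb. The shares over all genes tested were 0.864% and 0.377%. Pklr, liver pyruvate kinase, had 48.5, 76.8 and 155 in the high-Scd1 group and 20.3, 47.4 and 99.6 in the low-Scd1 group, with all 24 high-Scd1 mice above the low-Scd1 median (log2 0.77 ± 0.14, SE; adjusted p = 0.000619). Khk, which traps fructose, was 1.43-fold higher (adjusted p = 4.48e-05), again with all 24 high-Scd1 mice above the low-Scd1 median. Named after their values were seen, Gbe1, the glycogen branching enzyme, was 1.42-fold higher (adjusted p = 0.00264) and Ppp1r3b, a glycogen-targeting subunit of protein phosphatase, 1.61-fold higher (adjusted p = 0.00994).

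Further along, triglyceride synthesis had 1 of 14 tested genes higher and 0 lower, beside 0.864% and 0.377% of all genes tested. The 1 was Gpam, the mitochondrial acyltransferase that starts glycerolipid synthesis, with 33.4, 65.5 and 141 in the high-Scd1 group and 23.2, 38.7 and 50.7 in the low-Scd1 group. Its groups nearly separated: 21 of 24 high-Scd1 mice exceeded every low-Scd1 mouse (1.78-fold, log2 0.83 ± 0.11, SE; adjusted p = 6.85e-06). Dgat2, which completes triglyceride, had medians of 144 in the high-Scd1 and 128 in the low-Scd1 group (adjusted p = 0.188).

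Among 19 tested lipid droplet and lipase genes, 3 were higher and 0 lower, beside 0.864% and 0.377% of all genes tested. Pnpla3, the droplet lipase-like protein known for its fatty liver variant in people, spanned 0.179 to 58.7 in the high-Scd1 group (median 1.86) and 0.0851 to 12.4 in the low-Scd1 group (median 0.552), 3.66-fold overall (adjusted p = 0.00667). Its range followed sex, with medians of 10.99 and 1.2 in females and 0.652 and 0.197 in males (high-Scd1, low-Scd1). Fitm1, which helps droplets form, was 2.19-fold higher (adjusted p = 0.00264). Pnpla5 was also higher (adjusted p = 0.00548), at signals no higher than 1.21 in any mouse. Cidec, the droplet-fusing protein, had medians of 0.45 in the high-Scd1 and 0.303 in the low-Scd1 group (adjusted p = 0.591).

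Uptake and oxidation contributed a few genes. Of 12 uptake and binding genes, Cd36, a fatty acid translocase, was 1.82-fold higher (adjusted p = 0.0406), and Dbi, the acyl-CoA binding protein, was 1.27-fold higher (adjusted p = 2.82e-05), with 0 lower. For Cd36 the female medians were 53.02 and 44.5 and the male medians 15.6 and 7.23 (high-Scd1, low-Scd1). Beside 0.864% and 0.377% of all genes tested, 3 of 32 PPAR alpha targets and oxidation genes were higher and 0 lower. Among them, Ehhadh and Acaa1b are peroxisomal beta-oxidation enzymes, 1.52-fold and 1.66-fold higher (adjusted p = 0.00994 and 0.00269). Pex11a, which multiplies peroxisomes and was named after its values were seen, was also higher (log2 0.69 ± 0.12, SE; adjusted p = 0.000727).

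In lipoprotein metabolism 2 of 22 genes were higher and 1 lower, beside 0.864% and 0.377% of all genes tested. Pltp, phospholipid transfer protein, was 1.83-fold higher (adjusted p = 0.000747) and Lpcat3, which inserts polyunsaturated chains into phospholipid, 1.19-fold higher (adjusted p = 0.0272). Scarb1, the HDL receptor, was 1.24-fold lower (adjusted p = 0.029). Of 18 nuclear receptors only Pparg passed. This adipogenic receptor, which liver expresses at a low level, had 0.676, 1.7 and 4.2 in the high-Scd1 group and 0.2495, 1.08 and 2.0 in the low-Scd1 group (1.82-fold; adjusted p = 0.00927).

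Cholesterol synthesis and uptake genes, whose factor SREBP-2 is a close relative of SREBP-1c, did not pass in chow mice: 0 of 24 were higher and 0 lower by limma, with a median log2 difference of 0.13. Within the sexes, 24 of 24 differences were above 0 in females (median 0.37) and 8 of 24 in males (median -0.10). In each sex 0 of the 24 passed, and the test of the difference between the sexes called 0 genes, so unequal responses are not shown. Sqle, squalene epoxidase, had medians of 23.8 and 17.8 in females and 10.3 and 20.7 in males (high-Scd1, low-Scd1; adjusted p = 0.917). In high fat mice, set apart by the same ranking, 17 of the 24 were higher and 0 lower, with a median of 0.74.

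**Figure D2:**
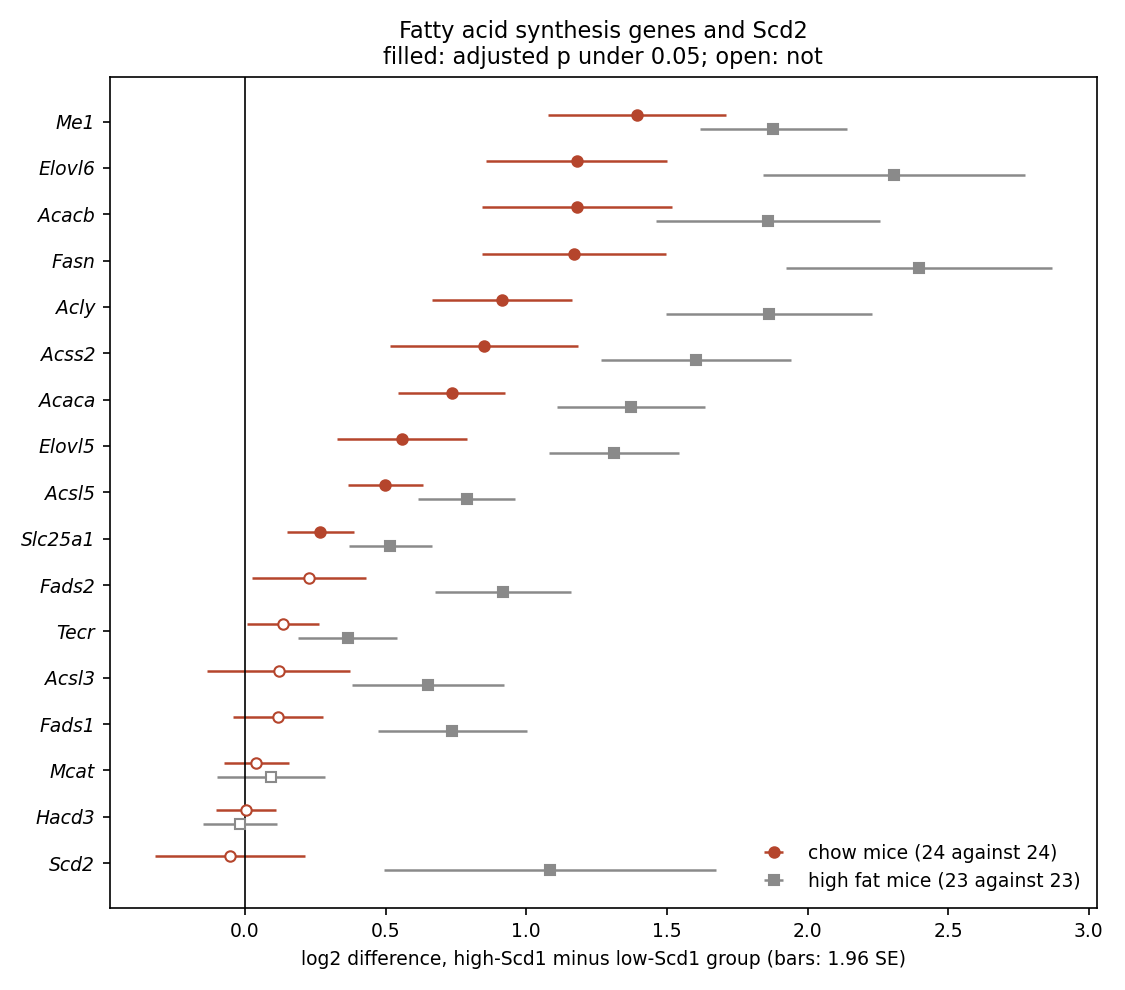
Log2 difference (high-Scd1 minus low-Scd1 group, horizontal axis) of the 16 fatty acid synthesis genes tested and of Scd2, in chow mice (circles, 24 against 24) and in high fat mice (squares, 23 against 23); bars are the interval given on the axis, filled symbols passed an adjusted p of 0.05. In chow mice 10 genes of the list are filled and in high fat mice 14, and Scd2 lies at -0.05 in chow and 1.08 in high fat mice.

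By size, the largest differences among called genes were not all lipogenic enzymes. Chrna4, a nicotinic acetylcholine receptor subunit, was 4.33-fold higher (log2 2.11 ± 0.28, SE; adjusted p = 4.7e-06). It had 0.109, 1.001 and 7.39 in the high-Scd1 group and 0.0143, 0.222 and 0.691 in the low-Scd1 group. The shift was plainest in females, whose lowest high-Scd1 mouse had 0.914 and whose highest low-Scd1 mouse had 0.691, so the female groups did not overlap, whereas the male groups did. Then came Pnpla3, the N-acetyltransferase-like Nat8f7 (log2 1.70 ± 0.42, SE; adjusted p = 0.0239), Me1, the secreted C1qtnf12 (log2 1.32 ± 0.34, SE; adjusted p = 0.0351) and the calsyntenin Clstn3 (log2 1.30 ± 0.27, SE; adjusted p = 0.00421). C1qtnf12 no longer passed without the female whose Xist went against its label (adjusted p = 0.0606). Elovl6, Acacb, Fasn, Fitm1, Thrsp and Ugt1a5 completed the 12 largest. Ugt1a5, a glucuronosyltransferase, shares most of its gene range with other Ugt1a genes, and Nat8f7 has close paralogs, so their counts may be split with copies. Aqp8, a water and ammonia channel named after its values were seen, was 2.03-fold higher (adjusted p = 1.87e-05).

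The 12 largest decreases were led by Enho, which encodes the secreted peptide adropin. Enho had 0.189, 1.37 and 3.34 in the high-Scd1 group and 0.613, 3.51 and 16.25 in the low-Scd1 group, and all 24 high-Scd1 mice lay below the low-Scd1 median (log2 -1.525 ± 0.31, SE; adjusted p = 0.00443). Its range overlaps genes on the opposite strand by short stretches. Igfbp2, an insulin-like growth factor binding protein that insulin lowers, had 15.7, 37.6 and 79.5 in the high-Scd1 group and 18.7, 73.2 and 128 in the low-Scd1 group. Of the 24 high-Scd1 mice, 23 lay below the low-Scd1 median (log2 -0.94 ± 0.18, SE; adjusted p = 0.00267).

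The remaining decreases among the 12 were Slc37a1, a sugar-phosphate carrier (log2 -1.14), Fmn2, an actin nucleator (-1.12), Armcx4 (-0.91), C8b, a complement subunit (-0.88), Hist1h2be (-0.86), Gpcpd1 (-0.72), Serpina3k (-0.70), Ung, a DNA repair glycosylase (-0.69), Avpr1a, the hepatic vasopressin receptor (-0.68), and Rnase4 (-0.68). Rnase4, a secreted ribonuclease, had 88.4, 205 and 291 in the high-Scd1 group and 189, 292 and 422.9 in the low-Scd1 group, with all 24 high-Scd1 mice below the low-Scd1 median (adjusted p = 0.000747). Ang, angiogenin, shares its promoter region and gene range with Rnase4 and was 1.49-fold lower (adjusted p = 0.00585), so the pair cannot be counted as independent. Serpina3k and Hist1h2be belong to families of near-identical copies and are uncertain for that reason.

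Of 14 tested genes of the hepatocytes around the central vein, 0 were higher and 2 lower, Axin2 and Gulo. The list's median log2 difference was -0.31. The shares over all genes tested were 0.864% higher and 0.377% lower. In the 50 chow mice outside both groups, split by Scd1 as described below, 0 of these 14 genes passed. There 9 of the 14 differences were above 0, with a median of 0.06. Axin2, a direct Wnt target, had 0.841, 1.33 and 3.43 in the high-Scd1 group and 1.35, 2.11 and 3.81 in the low-Scd1 group (adjusted p = 0.0429), and it no longer passed without the female whose Xist went against its label (adjusted p = 0.07). Gulo, the last enzyme of vitamin C synthesis, was 1.36-fold lower (adjusted p = 0.00454). Notum, another Wnt target named after its values were seen, was also 1.36-fold lower (adjusted p = 0.00279), and it overlaps antisense transcripts. Of 13 periportal genes 0 were higher and 0 lower, which is near the share called over all genes tested.

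A few genes passed singly in other lists, where so few calls say little about a list. Gstm1 was higher among 20 xenobiotic genes (adjusted p = 0.0146), Nfe2l2 and Gclc among 13 NRF2 and antioxidant genes (adjusted p = 0.00927 and 0.0295), and Bhlhe40 among 17 clock genes (adjusted p = 0.0395), with 0 lower in each. Igfbp2 was the 1 lower gene of 20 gluconeogenesis and fasting genes, Ahsg of 9 hepatocyte markers (adjusted p = 0.0477) and Mmp9 of 6 neutrophil markers (adjusted p = 0.0441), with 0 higher in each. Without the female whose Xist went against its label, Ahsg and Mmp9 no longer passed (adjusted p = 0.0683 and 0.0643).

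By limma, 0 genes passed in either direction among 25 of insulin and growth hormone signalling, 17 of bile acid synthesis and transport, 16 of the urea cycle and amino acids, 19 of the unfolded protein and stress response, 22 acute phase genes, 20 interferon response genes and 18 cell cycle genes. Over all genes tested 0.864% were called higher and 0.377% lower, so 0 calls in a list of this size are near that share. At an unadjusted p under 0.05 the whole comparison held 1782 genes. In the acute phase list 1 of 22 differences was above 0 and the median was -0.32, with -0.11 in females and -0.54 in males. Saa1, its most variable member, had 1.07, 4.42 and 38.9 in the high-Scd1 group and 2.39, 18.2 and 581 in the low-Scd1 group (adjusted p = 0.0794).

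Markers of other cell types gave 0 called genes among 15 Kupffer cell, 12 lipid-associated macrophage, 17 lymphocyte, 14 endothelial, 13 stellate, 8 bile duct, 3 adipose, 11 pancreas, 6 red cell and 3 muscle markers. Over all genes tested 0.864% were called higher and 0.377% lower, so 0 calls in lists this short say little about cell types. Not tested were 6 of 9 adipose, 4 of 7 muscle and 6 of 17 pancreas markers. Kupffer markers summed to 49.05 to 198.5 in the high-Scd1 group (median 109.3) and 64.5 to 246.9 in the low-Scd1 group (median 127.2), and 1 of 15 had a difference above 0. Their part in the acute phase and central vein values was not tested. Genes known to be higher in male liver gave 0 calls among 20 (median -0.27) and those higher in female liver 0 among 24 (median 0.35), although the ranking had been made within each sex.

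Read mouse by mouse, counts of the 10 called fatty acid synthesis genes differed between the groups, which the choice of these genes made likely. For each mouse the genes above the median of all chow mice of its sex were counted, as a description, since these genes had been called on the same groups. In the high-Scd1 group the median was 9 of 10 genes (range 3 to 10), with 11 mice above the median for all 10. In the low-Scd1 group the median was 2 (range 0 to 7), with 16 mice at 2 or fewer and 6 mice at 0. Counts at either extreme were therefore common in the extreme groups, but at least 1 high-Scd1 mouse had only 3 genes above the median and at least 1 low-Scd1 mouse had 7.

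The 50 middle mice had been used by no fit of these groups. For the 10 called fatty acid synthesis genes they showed the same order at a smaller scale. By the same ranking these mice were split into an upper and a lower middle group of 25 mice each. Their mean Scd1 differed by 0.71 on the log2 scale, against 3.04 between the extreme groups. For the 10 fatty acid genes the median count per mouse was 4 in the lower and 5 in the upper middle group. In each middle group 0 mice had all 10 genes above the median of their sex, and 0 mice had 0 genes above it. Over the 4 Scd1 groups from low to high, the medians of Fasn were 109, 136, 178 and 251, those of Elovl6 16.4, 19.99, 23.2 and 38.1, those of Me1 32.2, 38.3, 49.97 and 79.4, and those of Gpam 38.7, 42.9, 51.7 and 65.5. Igfbp2 ran the other way, with 73.2, 52.4, 40.3 and 37.6. Pklr differed little between its lowest pair of groups, with 47.4, 47.9, 54.6 and 76.8.

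**Figure D3:**
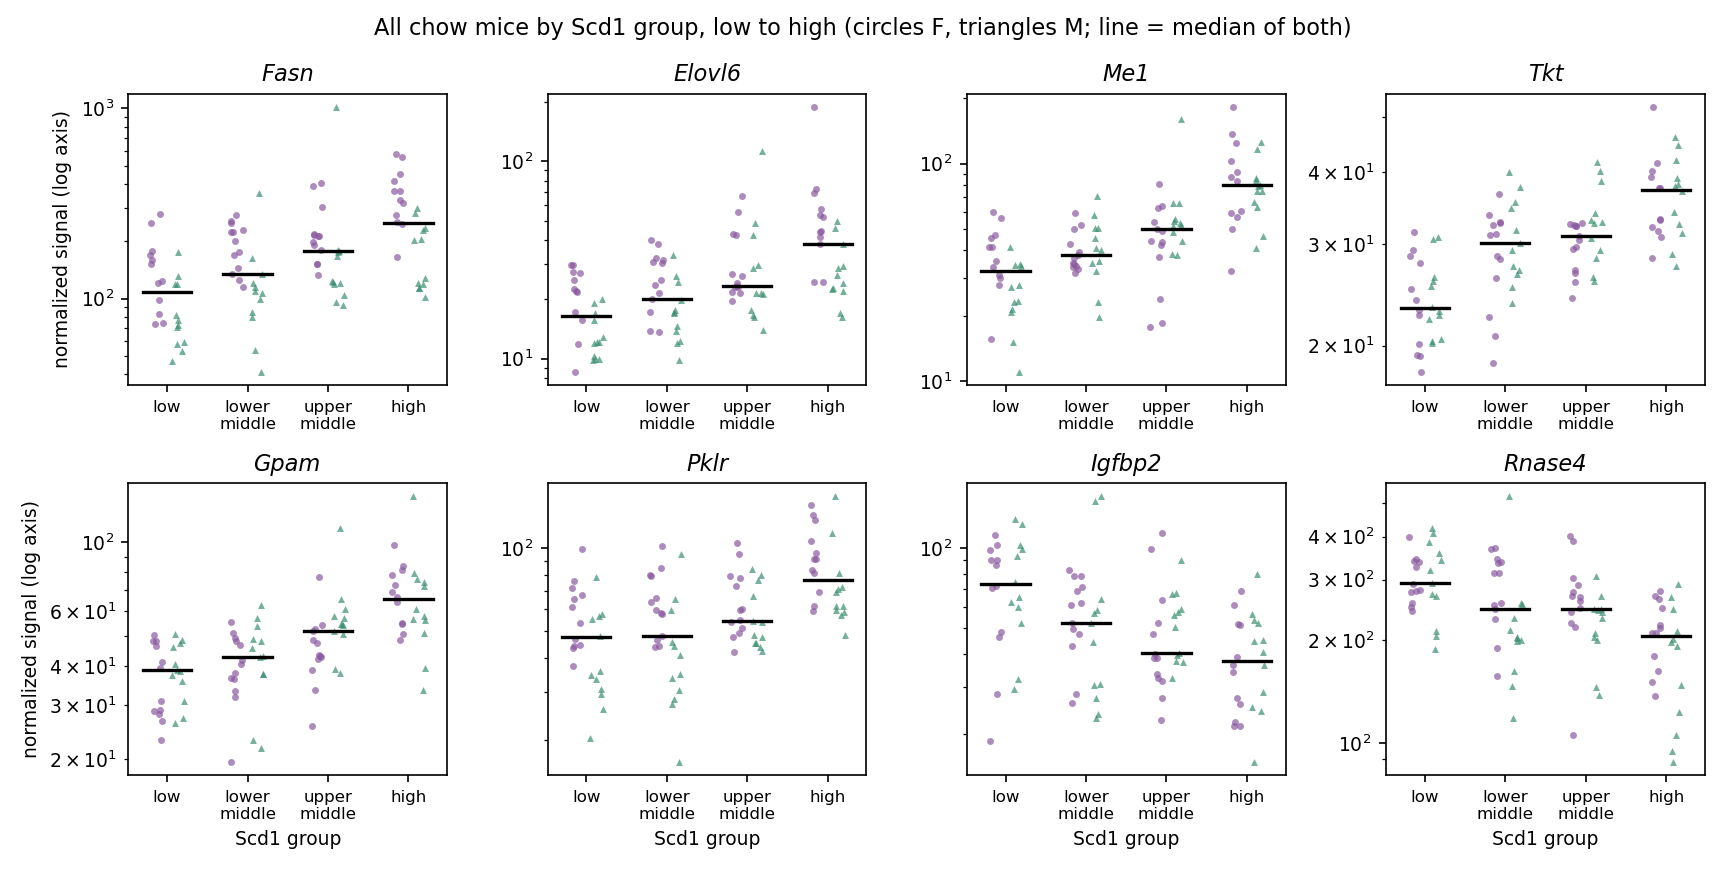
Normalized signal (log axis) of 8 genes in all 98 chow mice, by Scd1 group from low to high; circles are females, triangles males, and the line is the median of both. Fasn medians climb over the groups from 109 to 251, Igfbp2 medians descend from 73.2 to 37.6, and single mice overlap widely between neighbouring groups.

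Between the upper and the lower middle group, 0 genes passed by limma (0.0% of those tested, with 714 at an unadjusted p under 0.05), and 0 also after another rescaling. Of the 126 genes higher in the high-Scd1 group, 116 (92.06%) were higher in the upper middle group, where 58.99% of all genes were, and their median log2 difference there was 0.11. Of the 55 lower genes, 40 (72.73%) were lower there, against 41.01% of all genes. All 10 of the fatty acid genes were on the higher side, from 0.08 for Elovl5 to 0.44 for Elovl6. Not every list kept its sign there. Median log2 differences were 0.06 for central vein genes, 0.06 for stress response genes and 0.01 for genes higher in male liver. Between the extreme groups these medians were -0.31, -0.15 and -0.27.

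Both sexes contributed. In females alone 28 genes passed (0.192% of those tested, 25 higher and 3 lower) and in males alone 89 (0.61%, 62 higher and 27 lower). The test of the difference between the male and the female contrast called 0 genes (0.0%) by limma, with 903 at an unadjusted p under 0.05, so the unequal counts do not show unequal responses. Me1 differed by 1.65 in males (adjusted p = 4.31e-05) and by 1.15 in females (adjusted p = 0.00498) on the log2 scale. Chrna4 differed by 2.90 in females (adjusted p = 3.42e-06) and by 1.31 in males (adjusted p = 0.075), and Tkt by 0.61 in females and 0.62 in males.

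The high fat mice gave an independent set of animals for the same contrast. Their Scd1 was 3249 to 8507 in the high-Scd1 group (median 6142) and 180.4 to 2272 in the low-Scd1 group (median 681.3), a mean log2 distance of 3.07, close to that of the chow groups. More genes passed there: 585 higher (4.01%) and 630 lower (4.32%). Of the 126 genes higher in the chow high-Scd1 group, 118 (93.65%) were higher in the high fat high-Scd1 group, where 41.72% of all genes were, and 82 passed. These 82 are 65.08% of the chow list and 14.02% of the high fat list. Of the 55 lower genes, 53 (96.36%) were lower there, against 58.28% of all genes, and 31 passed, which are 56.36% of the chow list and 4.921% of the high fat list. No gene passed in opposite directions.

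**Figure D4:**
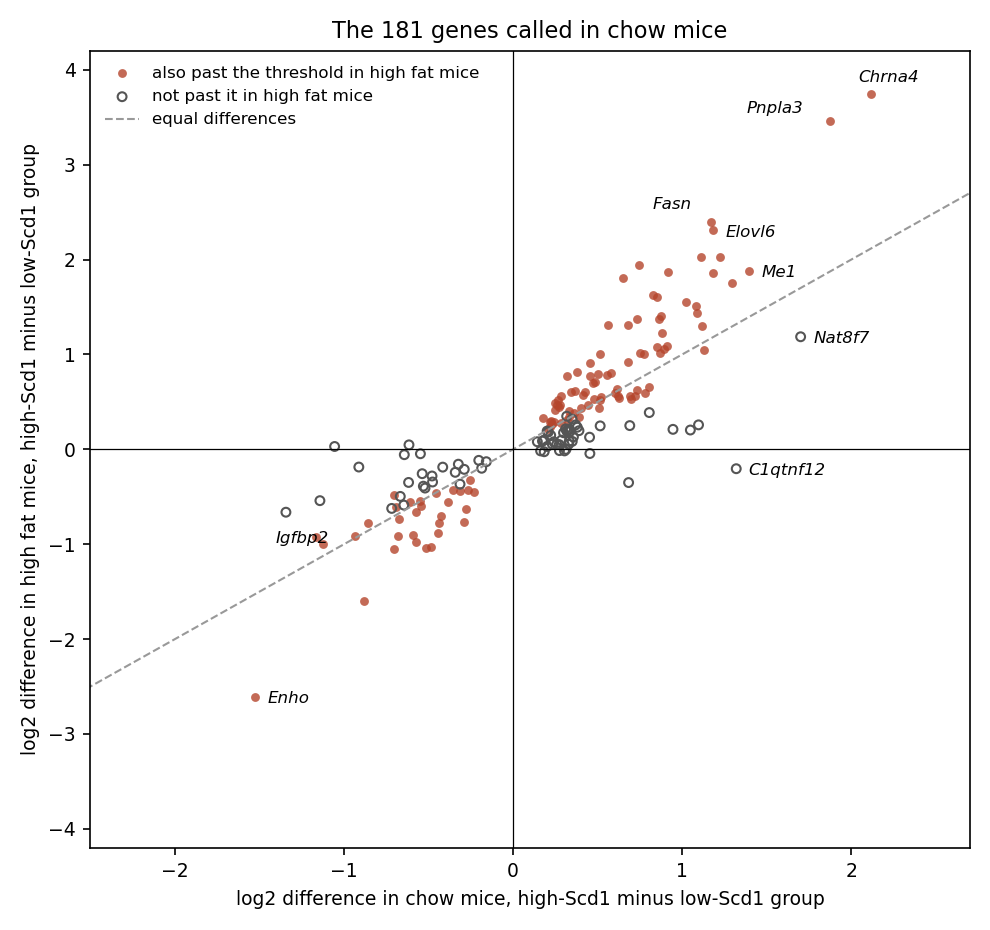
Log2 difference (high-Scd1 minus low-Scd1 group) of the 181 genes called in chow mice, in chow mice (horizontal axis) and in high fat mice (vertical axis); filled points also passed in high fat mice, open points did not, and the dashed line marks equal differences. Chrna4 lies at 2.11 and 3.74 and Enho at -1.525 and -2.61 (chow, high fat), while C1qtnf12 lies at 1.32 in chow and -0.20 in high fat mice.

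The contrast itself differed between the diets for 28 genes (0.192% of those tested; 10 with a more positive and 18 with a more negative value in chow mice). Fasn differed by 1.17 in chow and 2.40 in high fat mice (difference -1.21 ± 0.29, SE; adjusted p = 0.0476), Gpam by 0.83 and 1.63 (difference -0.78; adjusted p = 0.0476), and Elovl5 by 0.56 and 1.31 (difference -0.74; adjusted p = 0.0257). Cidec differed by 0.48 in chow and 2.72 in high fat mice (difference -2.21; adjusted p = 0.0137), and Mvd and Fdps, enzymes of cholesterol synthesis, by 0.26 and 1.91 and by 0.27 and 1.57 (adjusted p = 0.0387 and 0.0488). Ces3a, a carboxylesterase, differed by -0.08 in chow and -1.11 in high fat mice (adjusted p = 0.00521). A gene that passed on 1 diet alone is not shown to differ between the diets unless it is among these 28.

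Of 115 tested genes within 5 Mb of Scd1 on chromosome 19, 0 passed by limma and 11 had an unadjusted p under 0.05. The smallest adjusted p was 0.0678, for Ndufb8 (log2 0.17 ± 0.05, SE), a subunit of respiratory complex I that lies 140693 bases away. Genotypes were not analysed here.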

How the data were processed

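Livers of 192 mice were sequenced as 384 samples of 100 base single-end reads, and the 2 repeats of a mouse share 1 column. The authors deposited a signal per gene (21454 genes), scaled by the upper quartile in each mouse. CASAVA 1.8.0 and the build GRCm38 (mm10) are named per the submitters' processing notes. The aligner, counter and annotation are not given in the sources used here. IDs were matched to GENCODE M21 (21022 matched, 432 not).

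Low values lay within 0.1 of a whole read in 79.97% to 83.84% of cases per mouse, which is too few to recover reads, and no count model was fitted. Estimated depth was 9.78 to 17.9 megareads.

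Genes above 0 in at least 25 chow mice and with a mean of at least the pseudocount were kept (14591 without Scd1), as log2(value + 0.06). Folds on this scale understate changes of low genes. limma 3.58.1 (R 4.3.3, mean-variance trend) fitted the Scd1 group with sex and generation as covariates. Further fits took each sex, the middle mice, the high fat mice and the differences of contrasts. p-values were adjusted by Benjamini-Hochberg over all tested genes. Steps were tested on simulated data. Called means an adjusted p under 0.05. The text names members of the lists, up to 4 of each other list by p, the 12 largest called differences each way with a mean of at least 0.6, and up to 4 genes each way of a called difference of contrasts. Some genes that the rule names are not reported here. Genes outside this rule are said to be chosen after their values were seen. The members and all 39 lists were chosen with earlier results of these data known. Mouse numbers recur in both sexes and are not stated to mark a shared litter or day. Alternatives were other pseudocounts, filters, scalings, covariates, groupings and left-out mice.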

Additional observations from a re-analysis of the deposited data

Results flagged for a closer look

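The contrast between the high-Scd1 and low-Scd1 groups differed between chow and high fat mice, by the test of that difference, for 28 genes. Values are log2 differences, chow first and high fat second, followed by the tested chow minus high fat value from a joint fit.

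A smaller value in chow mice was found for 18 genes. In fatty acid and glycerolipid synthesis, Fasn had 1.17 and 2.40 (-1.21), Gpam 0.83 and 1.63 (-0.78), Elovl5 0.56 and 1.31 (-0.74), Fads2 0.23 and 0.92 (-0.69) and Fads3 0.02 and 0.95 (-0.93). Dlat, a pyruvate dehydrogenase subunit, had 0.32 and 0.77 (-0.45), and G6pdx, which supplies NADPH, had 0.10 and 1.00 (-0.89). In cholesterol synthesis, Mvd had 0.26 and 1.91 (-1.65) and Fdps 0.27 and 1.57 (-1.29). The droplet gene Cidec had 0.48 and 2.72 (-2.21).

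Other smaller values were those of Gprc5b with 0.39 and 2.67 (-2.29), Fam83a with 0.15 and 1.98 (-1.84), Kif1a with -0.27 and 1.36 (-1.62), Gas6 with 0.28 and 1.28 (-0.97) and Mr1 with 0.19 and 0.99 (-0.80). Cldn2 had -0.30 and 0.39 (-0.69) and Kctd2 0.09 and 0.48 (-0.38).

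A more positive value in chow mice was found for 10 genes. Mup21 had 0.32 and -2.05 (2.31), Ces3a -0.08 and -1.11 (1.02), Sult2a8 0.05 and -0.92 (0.96), Cyp2a12 0.28 and -0.34 (0.63) and Akr1c14 0.15 and -0.47 (0.60). Cyp4v3 had 0.00 and -0.59 (0.58), and Hnf4a, a master hepatocyte transcription factor, 0.06 and -0.38 (0.44). Oxr1 had 0.12 and -0.22 (0.35), Acaa2 0.12 and -0.21 (0.33) and Tbc1d14 0.09 and -0.16 (0.25). Mup21 and Ces3a belong to families with close copies, so reads may be shared with them.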

How the results depend on the processing

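The 10 fatty acid synthesis genes passed under every alternative run except within a single generation, where 1 passed in G11L1 and 7 in G11L2. The 126 higher and 55 lower genes became 3 and 5 in G11L1 mice (22 mice) and 41 and 4 in G11L2 mice (26 mice), with fewer mice by construction. A slope on Scd1 over all chow mice gave 299 higher genes, and weighting of mice gave 83 lower genes. For these the cause was not tested. Other alternatives gave 100 to 175 higher and 44 to 82 lower genes. Median-of-ratios rescaling gave 44 genes in females and 46 for the difference between diets, and the cause was not tested. A fit with mouse number as replicate block gave 126 and 55 (consensus correlation 0.0143) and changed no other call. Without the mouse whose Xist went against its label, 120 and 49 genes passed. For the other comparisons this alternative was added after seeing the data, with 23 in females, 89 in males, 0 for their difference and 30 for the difference between diets. No named gene changed sign with a call. Calls near the threshold were lost under some settings, among them those of Axin2, Mmp9, Bhlhe40, Ahsg, Csad, C1qtnf12, Gclc, Serpina10 and Armcx4. Depth limits genes with signals under 1, such as Pnpla5.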
